A study of Homo sapiens with 4 samples.

Results

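The regions described here are 82 windows of 1 Mb on the human autosomes in which EZH2 peaks of H3.1-K27M cells cover much of the sequence, called dense windows below. They were selected on the covered bases of both peak lists, among 2544 fixed windows of hg19 on all autosomes except 5 and 6. A window was taken when merged H3.1-K27M peaks covered at least 50000 of its bases and at least 1.5 times the bases covered by H3.1-WT peaks. The 82 windows are 3.22% of those examined, and the same rule with the genotypes exchanged took 2 windows, 0.0786%. Peaks with their midpoint in a dense window numbered 6221 of the 66093 in both lists, 4285 of 35016 in H3.1-K27M and 1936 of 31077 in H3.1-WT.

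The samples were HEK293, an established line of human embryonic kidney cells. Cells carried a lentiviral H3.1-K27M or H3.1-WT histone. Selection used G418 at 0.5 mg/ml, and doxycycline at 1 µg/ml switched the histone on; the labels describe no change to the cells' own H3 genes and do not say whether a line is 1 clone. The assay was CUT&RUN on 200000 cells per reaction: an antibody against EZH2 holds a nuclease at the bound chromatin, and the DNA that is cut free is sequenced. There were 4 libraries, 1 for EZH2 and 1 for the secondary antibody alone (anti-rabbit HRP) in each genotype, and each EZH2 list was made against the HRP library of its own genotype. The library titles of the mutant read H31, so its genotype was taken from the genotype label.

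EZH2 is the enzyme of Polycomb repressive complex 2 (PRC2), which places methyl groups on lysine 27 of histone H3 and keeps developmental genes silent. In H3 K27M that lysine is a methionine, and the mutation is best known from childhood gliomas of the brain midline, where global H3K27 trimethylation is low. PRC2 is typically recruited to CpG-rich sites near silent developmental genes, and its mark can extend from such sites into neighbouring chromatin.

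With 1 library per genotype there was no replicate to set a difference against, and no test was made between genotypes or between dense and other windows. The lists hold no read counts, so sequencing depth is unknown. The fold enrichment and −log10 q printed for a peak are the authors' own values. Intervals cover counting error only and treat peaks or windows as independent, which neighbouring peaks are not. Because the rule used the covered bases of both lists, every value from these lists is a description of the windows chosen.

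Dense windows held a large part of the H3.1-K27M list in a small part of the genome. They made up 3.24% of the length of the 20 autosomes and held 25.3% of the H3.1-K27M covered bases and 8.80% of the H3.1-WT covered bases. Peaks of H3.1-K27M covered 77.0 kb per Mb of dense windows and H3.1-WT peaks 27.6 kb per Mb, a ratio of 2.79. In the other 2462 windows the values were 7.64 kb per Mb for H3.1-K27M and 9.58 kb per Mb for H3.1-WT, a ratio of 0.797. The rule required a ratio of at least 1.5 inside each dense window. Taking these windows out lowers the ratio in the rest, so the opposite directions follow at least in part from the selection.

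Although the rule placed a ceiling on H3.1-WT coverage, dense windows were also rich in H3.1-WT peaks. The median dense window had 25839 covered bases in H3.1-WT, against 7723 in other windows. Of the 82 dense windows, 57 (69.5%) were among the 254 windows (10% of all) with the most H3.1-WT covered bases, and 79 lay above the median of all windows. A few were not: windows in 18q22.1 (chromosome 18, 62000001 to 63000000) and 18q21.2 (50000001 to 51000000) ranked 1628 and 1456 of 2544 by H3.1-WT coverage. In the first, H3.1-K27M peaks covered 56237 bases and H3.1-WT peaks 5831, and in the second 94775 and 6889. The second had the highest ratio of all dense windows, 13.8, and its band is known to hold DCC, a netrin receptor that guides axons.

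**Figure D1:**
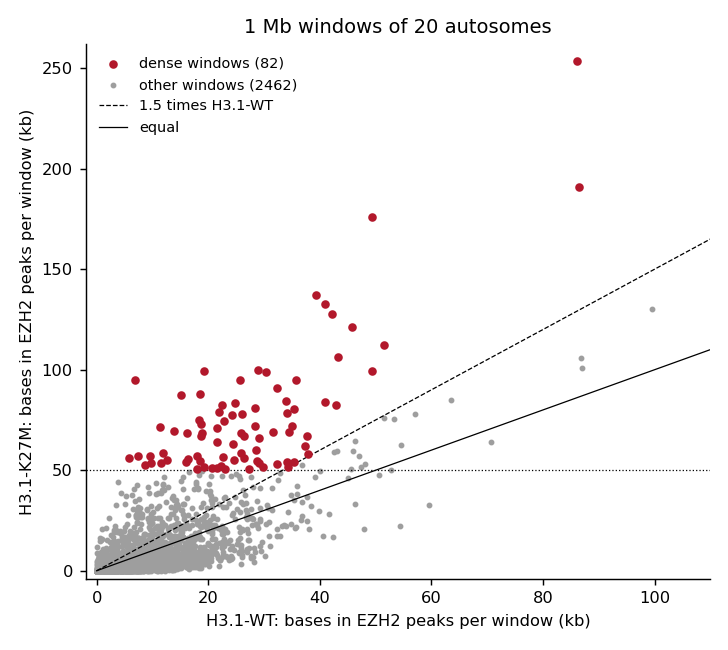
Each point is a window of 1 Mb, placed by its bases in H3.1-K27M peaks (vertical axis, kb) and in H3.1-WT peaks (horizontal axis, kb); red points are the 82 dense windows and grey points the 2462 others, with the limits of the rule as dotted and dashed lines. Most dense windows lie well to the right of the bulk of grey points as well as above them, with a median of 25.8 kb of H3.1-WT coverage, while a few at the left have little of it.

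Values just inside and just outside the limits differed little. The 3 dense windows with the least H3.1-K27M coverage had 50471, 50593 and 50735 covered bases, in 11q21, 2p22.1 and 18q22.2. The 3 windows that met the ratio and missed the minimum most narrowly had 49598, 49287 and 48209, in 1p34.3, 4q32.1 and 11q14.1. By ratio, the last inside were 1.5, 1.53 and 1.54 in 16p13.2, 13q31.1 and 7p21.3, and the first outside were 1.48, 1.44 and 1.42 in 17p12, 16p11.2 and 2p11.2. Of the 100 windows with at least 50000 H3.1-K27M bases, 18 missed the ratio. Another 31 windows met the ratio with 40000 to 50000 bases. The 82 windows are thus the upper end of a continuous range and not a separate class.

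The windows are described next by position, in hg19, together with genes known to lie in the same chromosome band. These gene names come from general knowledge of band locations, were picked after the positions were seen, and serve as orientation, since no peak was assigned to a gene. The densest window lay in 9p23 (chromosome 9, 9000001 to 10000000), with 253607 bases in 127 H3.1-K27M peaks and 86077 bases in 71 H3.1-WT peaks. The band holds part of PTPRD, a receptor tyrosine phosphatase of synapses and a very long gene. Neither list had a strong peak there, strong meaning a −log10 q of at least 5: the highest −log10 q was 4.08 for H3.1-K27M and 3.52 for H3.1-WT. The window in 20q13.33 (chromosome 20, 59000001 to 60000000), a light band that holds the cadherin gene CDH4, had 190851 bases in 110 H3.1-K27M peaks and 86407 bases in 59 H3.1-WT peaks. Peak numbers differed less than covered bases in both.

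Another 2 of the leading windows lay in 9q33.1 and 17q22. In 9q33.1 (chromosome 9, 120000001 to 121000000), the band of ASTN2, a gene of glia-guided neuron migration, 81 H3.1-K27M peaks covered 137358 bases and 31 H3.1-WT peaks 39286. In 17q22 (chromosome 17, 50000001 to 51000000), where part of the carbonic-anhydrase-related gene CA10 lies, 86 H3.1-K27M peaks covered 132721 bases and 24 H3.1-WT peaks 40939. Here the genotypes differed by more than 3 times in covered bases, with ratios of 3.50 and 3.24.

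A further 5 of the 10 densest windows all lay in the darkest class of bands. In 16q21 (chromosome 16, 61000001 to 62000000), the band of the cadherin gene CDH8, H3.1-K27M peaks covered 127913 bases and H3.1-WT peaks 42119. In 9p21.3 (chromosome 9, 23000001 to 24000000), the band of ELAVL2, a neuronal RNA-binding protein, H3.1-K27M peaks covered 121166 bases and H3.1-WT peaks 45700. In 11p14.3 (chromosome 11, 22000001 to 23000000), the band of the vesicular glutamate transporter gene SLC17A6, H3.1-K27M covered 112330 bases and H3.1-WT 51463. In 9q31.1 (chromosome 9, 104000001 to 105000000), the band of the NMDA receptor subunit gene GRIN3A, H3.1-K27M covered 106374 bases and H3.1-WT 43186. In 2p12 (chromosome 2, 80000001 to 81000000), the band of CTNNA2 and LRRTM1, which act in neuronal adhesion and at synapses, H3.1-K27M covered 99735 bases and H3.1-WT 28970. Such bands hold other genes too, and whether neuronal genes are over-represented in dense windows was not tested.

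**Figure D2:**
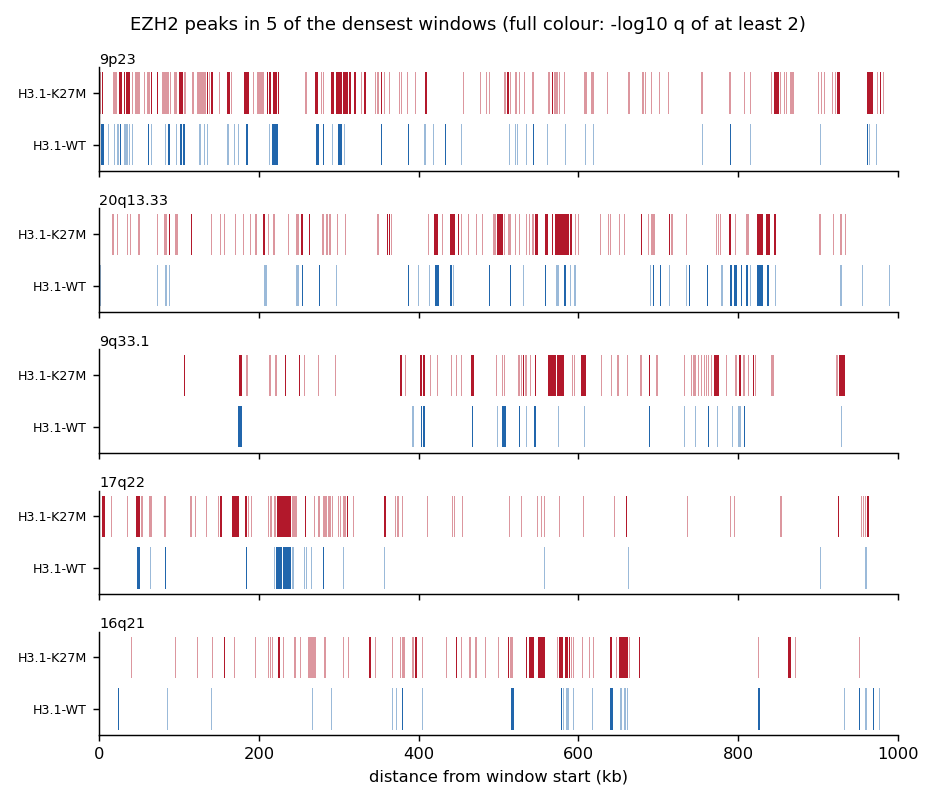
Peaks in 5 of the densest windows, each drawn to scale by distance from the window start (kb), with H3.1-K27M (red) above H3.1-WT (blue); full colour marks peaks whose −log10 q is 2 or more and pale colour weaker ones. In each window H3.1-K27M peaks stand among and between the H3.1-WT peaks along most of the length, 127 against 71 peaks in 9p23 and 86 against 24 in 17q22.

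Coverage in dense windows came from many separate peaks. A dense window held 27 to 127 H3.1-K27M peaks, with a median of 47, and 7 to 71 H3.1-WT peaks, with a median of 22. H3.1-K27M peaks outnumbered H3.1-WT peaks in 81 of the 82 windows, the exception being the window in 16p13.2 from 8000001, with 27 and 31. The widest single H3.1-K27M peak made up a median of 11.6% of its window's covered bases, at most 32.9%. When each window was divided into 10 bins of 100 kb, all bins held an H3.1-K27M peak in 45 windows and an H3.1-WT peak in 16 windows. H3.1-K27M coverage was the higher of the 2 lists in a median of 8.5 bins.

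Peaks of H3.1-K27M in dense windows lay closer together and were wider than elsewhere. The median gap between neighbouring H3.1-K27M peaks was 7345 bases in dense windows and 29730 in other windows. For H3.1-WT peaks the median gaps were 18974 and 46563 bases. Median width of H3.1-K27M peaks was 968 bases in dense windows and 747 in other windows, and peaks of at least 5000 bases were 4.27% and 1.85% of the list. H3.1-WT peaks had median widths of 795 bases in dense windows and 769 in other windows. The width difference between dense and other windows was thus larger in H3.1-K27M than in H3.1-WT, and wide H3.1-K27M peaks helped a window to meet the rule.

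The number of peaks and their strength ran in different directions. Most peaks in dense windows were weak: 76.8% of H3.1-K27M peaks (95% Wilson interval 75.5% to 78.0%) and 71.0% of H3.1-WT peaks (69.0% to 73.0%) had a −log10 q under 2. In other windows the shares were 73.6% and 55.1%. Median fold enrichment, the linear ratio of EZH2 over background given by the authors' caller, was 3.39 for H3.1-K27M peaks and 3.35 for H3.1-WT peaks inside dense windows, and 3.37 and 3.47 in the others. The median peak of H3.1-WT was therefore weaker inside dense windows than outside, and that of H3.1-K27M was almost level.

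The ratio of peak numbers was lower at each higher threshold, in dense and in other windows. Over all peaks, the ratio in dense windows was 2.21, from 4285 H3.1-K27M and 1936 H3.1-WT peaks. With a minimum −log10 q of 2 it was 1.77, from 995 and 561 peaks, and with 3 it was 0.915 (95% exact interval 0.749 to 1.12), from 194 and 212. For strong peaks it was 0.667 (0.453 to 0.974), from 48 H3.1-K27M and 72 H3.1-WT peaks, and with a minimum of 10 it was 0.390, from 16 and 41. H3.1-K27M peaks thus outnumbered H3.1-WT peaks with all peaks counted and at a minimum of 2, and not at higher minimums. In other windows the ratio was 0.815 over all peaks, 0.480 at 2, 0.343 at 3, 0.290 at 5 and 0.192 at 10. The ratio in dense windows divided by that in other windows was 2.71 over all peaks and 3.70, 2.67, 2.3 and 2.03 at these minimums. The windows were chosen for H3.1-K27M over H3.1-WT coverage by these same peaks, so the rule itself favours values above 1. The q value depends on the unknown depth of both libraries, whose part in these counts was not tested.

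**Figure D3:**
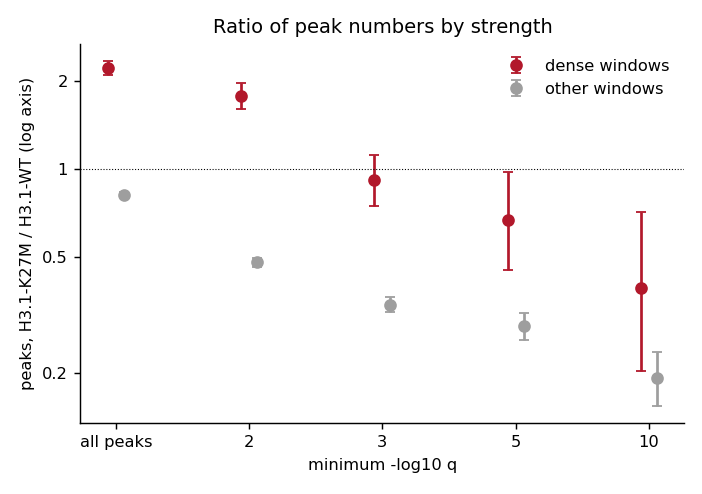
Ratio of the number of H3.1-K27M peaks to the number of H3.1-WT peaks (log axis) over all peaks and at minimum −log10 q values of 2, 3, 5 and 10, in dense windows (red) and other windows (grey), with conditional exact 95% intervals. In dense windows the ratio runs from 2.21 to 0.390 and crosses 1 between minimums of 2 and 3, and in other windows it is below 1 throughout.

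Single windows showed the same contrast. Of the 82 dense windows 39 held a strong H3.1-K27M peak and 51 a strong H3.1-WT peak, and 28 held none in either list. Strong peaks were more numerous in H3.1-K27M in 5 windows and in H3.1-WT in 22, and equal in number in 27. The windows with the most strong H3.1-WT peaks lay in 9p21.3 from 23000001, with 1 from H3.1-K27M and 4 from H3.1-WT, and in 12q24.21 (chromosome 12, 114000001 to 115000000), with 4 in each list. The band 12q24.21 holds TBX5 and TBX3, T-box transcription factors of heart and limb development. The next 3 windows had 3 strong H3.1-WT peaks each, in 9q31.1, 12q23.3 and 2q34, where H3.1-K27M had 3, 2 and 0. With the 27 ties included, 49 of the windows with any strong peak had at least as many in H3.1-WT. A majority of strong H3.1-WT peaks was not particular to dense windows. Other windows held 470 strong H3.1-K27M and 1623 strong H3.1-WT peaks, a ratio of 0.290 against 0.667 in dense windows.

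The sites of highest fold enrichment named here were found in both lists, with a higher fold enrichment in H3.1-WT. This did not hold everywhere: in some dense windows, such as that in 2q14.1 from 115000001, the highest fold enrichment was that of H3.1-K27M. The highest H3.1-K27M fold enrichment was 9.25, at a peak in 12q14.1 (chromosome 12, 62579738 to 62589183; 9446 bases), which an H3.1-WT peak with a fold enrichment of 19.2 overlapped on 7195 bases. The second, 9.01, was in 9q31.1 (chromosome 9, 104492221 to 104505966), the band of GRIN3A, where H3.1-WT reached 12.5. The third, 8.64, was in 2q22.1 (chromosome 2, 137518087 to 137528523), where H3.1-WT reached 10.3. At all 3 sites the H3.1-WT value was the higher one.

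H3.1-WT values were also higher at further sites. Those in 17q12, 17q22 and 9q21.13 were named for their high H3.1-WT fold enrichment, a choice that favours a higher H3.1-WT value. In 2p12 (chromosome 2, 80525063 to 80533461), the band of LRRTM1, H3.1-K27M reached a fold enrichment of 8.61, against 14.9 for H3.1-WT. The highest H3.1-WT fold enrichment in dense windows was 22, at a peak in 17q12 (chromosome 17, 32904714 to 32913200; 8487 bases), where the H3.1-K27M peak had 7.51 and shared 4630 bases. Further H3.1-WT peaks of high fold lay in 17q22 (chromosome 17, 50229551 to 50240092), with 7.86 for H3.1-K27M against 15.0 for H3.1-WT, and in 9q21.13 (chromosome 9, 77108591 to 77119083), with 7.95 and 14.1. The band 9q21.13 holds RORB, a nuclear receptor of retina and cortex. Fold enrichments of the lists depend on each library's depth and background, so the difference between lists does not measure a difference in bound EZH2. Each is also a single value for a whole call, and calls at the same site differed in width, whose part was not tested.

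Of 4 among the widest H3.1-K27M peaks of dense windows, 3 coincided with strong H3.1-WT peaks. One in 1q23.2 (chromosome 1, 159125736 to 159145646), the band of the adhesion gene CADM3, spanned 19911 bases, with H3.1-WT peaks on 12869. Another in 7p21.3 (chromosome 7, 8467455 to 8486629), the band of NXPH1, a secreted protein of neurons, spanned 19175 bases, with an H3.1-WT peak on 17676. Next in width was a peak of 17904 bases in 12q21.1 (chromosome 12, 72654688 to 72672591), 16098 of them under H3.1-WT peaks. A peak of 17841 bases in 20q13.33 (chromosome 20, 59570268 to 59588108) followed, 6963 of them under H3.1-WT peaks. The peak in 20q13.33 had the weakest H3.1-WT counterparts of the 4, with a highest −log10 q of 2.81.

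Wide peaks with no H3.1-WT peak on any base were also present, and none of those named here was strong. The widest spanned 10940 bases in 18q22.2 (chromosome 18, 66860328 to 66871267), with a fold enrichment of 3.62 and a −log10 q of 1.97. Others lay in 9p21.3 (chromosome 9, 23187763 to 23198376; 10614 bases, fold enrichment 3.61 and −log10 q 1.91), in 9q33.1 (chromosome 9, 120562221 to 120571990; 9770 bases, 3.69 and 2.06) and in 2p12 (chromosome 2, 80828312 to 80836639; 8328 bases, 3.95 and 2.44). The last 3 lay in windows that are among the 10 densest. The peaks named here lay above the medians of all H3.1-K27M peaks in dense windows, a fold enrichment of 3.39 and a −log10 q of 1.58. Their fold enrichments were far below the highest, 9.25, and they were far wider than the median of 968 bases.

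Most H3.1-K27M peaks in dense windows had no counterpart. Of the 4285, 985 shared at least 1 base with an H3.1-WT peak (23%, 21.8% to 24.3%). Of the 1936 H3.1-WT peaks, 1052 shared a base with one of H3.1-K27M (54.3%, 52.1% to 56.5%). In other windows the shares were 38.7% of H3.1-K27M peaks and 31.4% of H3.1-WT peaks. When both peaks had to share 50% of their length, the shares in dense windows were 7.49% of H3.1-K27M peaks and 16.6% of H3.1-WT peaks. Covered bases gave the same order, with 1.21 Mb shared of 6.32 Mb in H3.1-K27M (19.2%) and of 2.26 Mb in H3.1-WT (53.7%). In dense windows and in other windows alike, the list with fewer covered bases had the larger share of its peaks overlapped. From other to dense windows, H3.1-WT coverage was higher, at 9.58 and 27.6 kb per Mb. The overlapped share of H3.1-K27M peaks was lower, at 38.7% and 23%. How far unequal coverage accounts for these shares was not tested.

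In dense windows stronger peaks were overlapped more often than weaker ones. Those of H3.1-WT whose −log10 q lay from 1 to 1.5 were overlapped in 40.2% of 773 cases, those from 2 to 3 in 65.3% of 349 and strong ones in 97.2% of 72 (90.4% to 99.2%). In other windows the shares were 16.6%, 32.2% and 83.1% (81.2% to 84.8%). For H3.1-K27M peaks the shares at the same steps were 11.9% of 1804, 38.0% of 801 and 95.8% of 48, and in other windows 22.6%, 57.7% and 96.6%. In each list, 2 strong peaks in dense windows had no counterpart in the other.

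Where both genotypes had a peak, the H3.1-K27M call was usually the wider one in dense windows. Merging the lists gave 5147 regions with their midpoint in dense windows. Of these, 963 held both genotypes (18.7%), 3300 H3.1-K27M alone (64.1%) and 884 H3.1-WT alone (17.2%). Among the 30761 regions of other windows the shares were 20.5%, 33.5% and 46.0%, so the share with both genotypes was similar. In the 963 shared regions H3.1-K27M peaks covered a median of 1757 bases and H3.1-WT peaks 1095, and H3.1-K27M was wider in 67.9% (64.9% to 70.8%). In the 6300 shared regions of other windows the medians were 976 and 1286 bases, and H3.1-K27M was wider in 35.9% (34.8% to 37.1%). The highest fold enrichment in a shared region was greater in H3.1-K27M in 56.6% of those in dense windows and in 34.5% of those in other windows. This share covers shared regions of all strengths and was not split by strength. The rule used the covered bases of both lists, so it favours wider H3.1-K27M calls in dense windows by itself.

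Most H3.1-K27M peaks without a counterpart lay more than 5 kb from any H3.1-WT peak. Of the 3300, 933 (28.3%) lay within 5 kb of an H3.1-WT peak, and the median distance of the 3300 to one was 12235 bases. In other windows 2139 of 10307 such peaks (20.8%) lay within 5 kb, and the median distance was longer, 25584 bases. The reverse distance, from the 884 H3.1-WT peaks without a counterpart to the nearest H3.1-K27M peak, had a median of 4997 bases in dense windows. In other windows the reverse median was 53972 bases, over 14154 peaks. Since the H3.1-K27M list is the denser one in dense windows, a shorter distance to it there follows from its density.

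Coverage was also compared by distance from strong H3.1-WT peaks, in tiles of 10 kb. The 116 tiles of dense windows that overlapped such a peak were covered to 46.4% by H3.1-K27M peaks and to 39.8% by H3.1-WT peaks (ratio 1.17). Within 50 kb of one, outside it, it was 9.84% for H3.1-K27M and 3.82% for H3.1-WT (ratio 2.57). At 50 to 100 kb it was 7.16% and 1.86%, and at 100 to 200 kb 6.57% and 2.48%, with ratios of 3.84 and 2.65. At 200 to 500 kb it was 6.62% and 1.91%, and at 500 kb or more 7.22% and 2.17%, with ratios of 3.47 and 3.33. H3.1-K27M coverage in dense windows was thus highest at and beside strong sites and otherwise stayed between 6.57% and 7.22% at all distances examined. Coverage was highest at strong sites in other windows too. Tiles there that overlapped a strong H3.1-WT peak were covered to 19.2% by H3.1-K27M and to 26.6% by H3.1-WT peaks (ratio 0.722). Within 50 kb the values were 1.05% and 1.16%, and at 500 kb or more 0.498% and 0.633%.

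The excess of H3.1-K27M coverage extended to the windows directly beside dense ones and not to those farther away. The 119 windows directly beside a dense window had 19.3 kb per Mb in H3.1-K27M peaks and 14.3 in H3.1-WT peaks (ratio 1.35), and 68 of them (57.1%) had more H3.1-K27M than H3.1-WT coverage. At a distance of 2 windows the values were 10.7 and 12.8 kb per Mb, a ratio of 0.836. From 4 windows on the ratio lay between 0.669 and 0.732. Since any window that met both limits was itself dense, the rule caps the values at every distance above 0, and a step at the edge of the class follows from it.

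**Figure D4:**
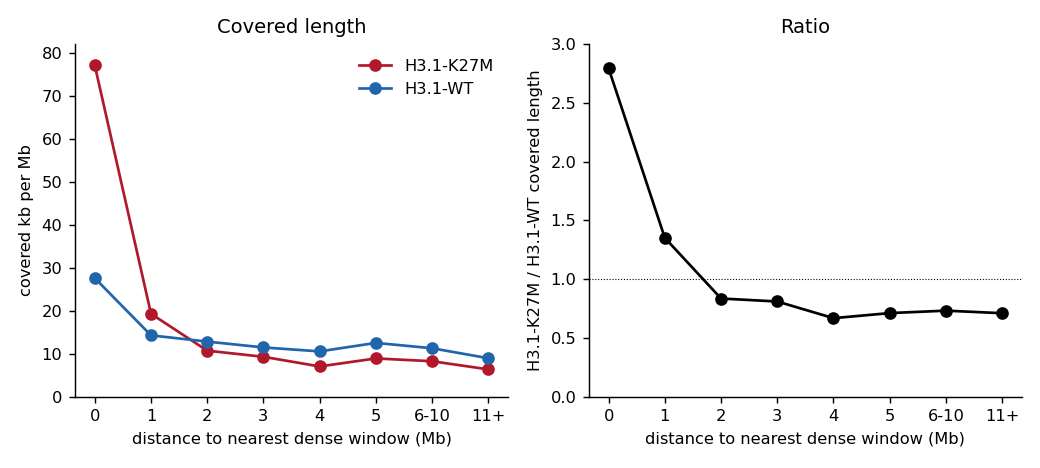
Left, covered length in kb per Mb for H3.1-K27M (red) and H3.1-WT (blue) against the distance to the nearest dense window on the same chromosome, in windows of 1 Mb, with 0 for dense windows; right, the ratio of the 2 lists. The ratio is 2.79 in dense windows, 1.35 beside them and 0.836 at 2 windows, where it is close to the value farther away.

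Dense windows were often neighbours. Of the 82, 35 (42.7%) directly adjoined another, and 119 of the 2462 other windows adjoined a dense one. The share was 0% for the 9 windows chosen on peaks past a −log10 q of 2. They formed 1 run of 3 windows, 16 runs of 2 and 47 single windows. Among the runs with most coverage was one in 9p23 (chromosome 9, 9000001 to 11000000), with 341465 bases under H3.1-K27M peaks and 104671 under H3.1-WT peaks. Another in 16q21 (chromosome 16, 61000001 to 63000000) had 227491 and 91428 bases. The run with the highest ratio, 6.05, was in 18q21.2 (chromosome 18, 49000001 to 51000000), with 173936 bases under H3.1-K27M peaks and 28771 under H3.1-WT peaks.

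Dense windows lay mostly in dark Giemsa bands, which are AT-rich and poor in genes. A window was given the band that holds most of its bases, and the darker classes, gpos75 and gpos100, held 53 of the 82 dense windows (64.6%, 53.8% to 74.1%) and 680 of the 2462 others (27.6%, 25.9% to 29.4%). By class, 31 of 379 windows in gpos100 were dense (8.18%), 22 of 354 in gpos75 (6.21%), 17 of 340 in gpos50 (5%), 2 of 187 in gpos25 (1.07%) and 10 of 1074 in light bands (0.931%). The other 680 dark windows were covered to 10.2 kb per Mb by H3.1-K27M peaks and to 8.97 by H3.1-WT peaks (ratio 1.13). H3.1-K27M coverage was thus above the 7.64 kb per Mb of all other windows there too, though far below that of dense windows.

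Some dense windows lay outside dark bands. The window in 20q13.33, second in coverage, is in a light band. The window in 11p15.4 (chromosome 11, 5000001 to 6000000), the band of the beta-globin genes and of a large olfactory receptor cluster, had 99215 bases in 69 H3.1-K27M peaks and 19217 bases in 28 H3.1-WT peaks, a ratio of 5.16. A pair of adjoining windows in 1q23.1 and 1q23.2 (chromosome 1, 158000001 to 160000000), bands that also hold olfactory receptor genes, had 149363 bases under H3.1-K27M peaks and 54111 under H3.1-WT peaks. Few dense windows lay near chromosome ends or centromeres: 3 were within 5 Mb of an end and 2 within 5 Mb of a centromere, 3.66% and 2.44% of the dense windows, against 8.81% and 12.3% of the others. The others include 91 windows in centromere (acen) bands, some with no peak in either list, which could not be dense. The window in 2p11.2 (chromosome 2, 90000001 to 91000000), near the centromere, had 75699 H3.1-K27M bases and missed only the ratio.

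The dense windows were unevenly spread over chromosomes. Chromosome 2 had 19, chromosome 9 had 13, chromosome 11 had 10 and chromosome 12 had 9, together 51 of the 82 on 656 of the 2544 windows. Chromosomes 4, 8, 10, 14, 15, 19 and 21 had none, although they hold 224 of the 733 windows in dark bands. On chromosomes 14, 19 and 21 the highest H3.1-K27M coverage of a window, 84862, 105991 and 50795 bases, passed the minimum and missed the ratio. On chromosomes 4, 8, 10 and 15 the highest was 49287, 47621, 47016 and 36387 bases, under the minimum. On chromosome 9, 10 of 26 dark windows were dense (38.5%), on chromosome 2, 14 of 80 (17.5%), and on chromosome 4, 0 of 69. Over all dark windows of chromosome 9, H3.1-K27M peaks covered 51.9 kb per Mb and H3.1-WT peaks 21.4, and on chromosome 4 they covered 5.03 and 4.07 kb per Mb. Outside the dense windows, the ratio of covered length was 0.792 on chromosome 2, 0.669 on chromosome 9, 0.979 on chromosome 11 and 0.814 on chromosome 12, against 0.797 over all other windows.

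**Figure D5:**
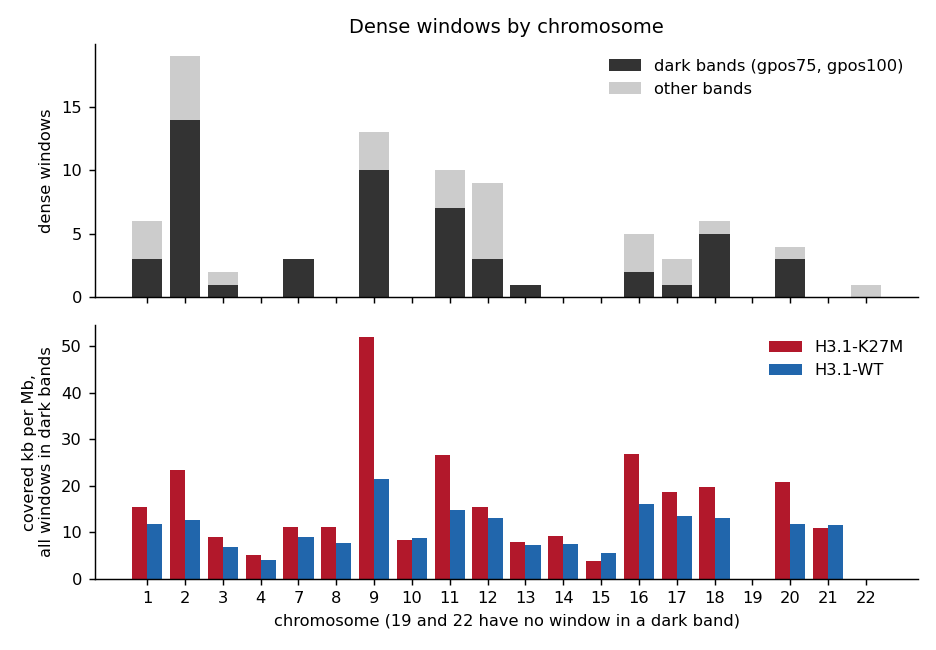
Top, number of dense windows per chromosome, split into dark bands (black) and other bands (grey); bottom, covered length in kb per Mb over all windows in dark bands for H3.1-K27M (red) and H3.1-WT (blue). Chromosomes 2 and 9 hold 19 and 13 dense windows, and the dark bands of chromosome 9 stand out in both lists, with 51.9 and 21.4 kb per Mb.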

How the data were processed

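EZH2 CUT&RUN peak lists of H3.1-K27M and H3.1-WT HEK293 cells were analysed, 1 library each. Tools listed in the submitters' processing notes, without roles, are MACS2, Bowtie2 2.3.5.1, deepTools, Picard and cutadapt, with the build hg19. The authors deposited broad peaks, called per sample against 1 HRP library, each with a fold enrichment (a linear ratio over the caller's background) and a −log10 q value. The lowest −log10 q was 1.00 for H3.1-K27M and 1.01 for H3.1-WT. Scaling between libraries: not given in the sources used here. Depth is unknown.

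The 2 lists were merged into covered bases per fixed window of 1 Mb, and peaks were assigned by midpoint. Overlap means at least 1 shared base. No filter for repeats or poorly mapped sequence was applied. Intervals are 95% Wilson intervals, or conditional exact (Clopper-Pearson) intervals for ratios of peak numbers. Chromosome lengths came from GenomeInfoDb 1.38.1 and Giemsa bands from circlize 0.4.16, whose table ends at the hg19 length on all 24 chromosomes; 0 peaks ended past a chromosome. No hg19 genome or annotation was used here, so genes, sequences and base composition in the windows, and the gene lists drawn up for them, are not analysed here. Coverage and overlap code was tested on simulated lists against a base mask and bedtools 2.31.1. The software was pandas 2.3.3, numpy 2.4.6, scipy 1.17.1 and matplotlib 3.10.9 under Python 3.11.15.

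The windows and the comparisons were chosen with earlier results of these data known. Regions were named by a rule: the 10 densest windows, the 3 longest runs, the 5 widest and 5 highest-fold H3.1-K27M peaks, the 3 windows with most strong H3.1-WT peaks and those nearest the limits. The H3.1-WT peaks of highest fold, the wide peaks without a counterpart, the windows and the run of highest ratio, those in 11p15.4 and 1q23 and the tiles by distance were added after values were seen. Some regions that this rule takes are not reported here.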

Additional observations from a re-analysis of the deposited data

How the results depend on the processing

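The 82 dense windows became 176 with windows of 500 kb, 31 with a minimum of 75000 bases and 9 when chosen on peaks past a −log10 q of 2; under the other 5 alternatives there were 68 to 113. The share in dark bands, 64.6%, moved to 51.5% with windows starting at 500 kb and to 77.4% with a minimum of 75000 bases. The share next to another dense window, 42.7%, moved to 55.1% with windows of 500 kb, 0% for the 9 windows chosen on peaks past a −log10 q of 2, and 59.8% when 1 window between neighbours was allowed. The ratio of covered length, 2.79, was 2.94 with windows starting at 500 kb, 2.69 without chromosome 2, 2.66 with lists of equal length, 2.29 with a minimum −log10 q of 2 and 1.19 with 3; it reversed to 0.982 with 5. The ratio of strong peak numbers, 0.667, reversed to 1.77 at a minimum of 2 and moved to 0.390 at 10. Overlap of H3.1-K27M peaks, 23%, moved to 24.8% with lists of equal length, 7.49% when both peaks had to share 50% of their length and 25.1% with both lists at a minimum of 2. Overlap of H3.1-WT peaks, 54.3%, moved to 57.0% with windows starting at 500 kb, 16.6% at 50% and 46.5% at a minimum of 2. Median fold enrichment of H3.1-K27M peaks, 3.39, moved to 3.43 with lists of equal length, which removes its weakest peaks. Of 56 alternative values 33 stayed within their counting interval, within 1.5 times for a count, or equal to 3 significant digits for the ratio of covered length. The cause of the other changes was not tested. No paired analysis was possible because there is 1 library per genotype. With depth unknown, peak numbers and strengths of the lists cannot be put on a common scale.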
